A study of Saccharomyces cerevisiae with 2 samples.

Results

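Genes of fatty acid beta-oxidation and of the peroxisome were examined in UV02_HG and MF02, 2 strains of Saccharomyces cerevisiae (budding yeast). The members are 10 genes taken by their systematic names from the 7163 features of the deposited expression table, and all 10 passed the minimum of 1 FPKM in either strain. UV02_HG is given in the labels by its name alone, MF02 is labelled wild type, and both strains were grown with 40% (w/v) glucose and collected in mid-exponential phase. The sources used here do not give how UV02_HG was derived or which alleles set it apart from MF02. Expression was measured by RNA sequencing as FPKM, the number of fragments scaled by the length of a gene model and by the library's size. The labels give 1 sample per strain and the table holds 2 columns per strain, so the columns were read as runs of 1 sample. The difference between the strains therefore has no replicate check and no p-value, and column values are given throughout. The design text speaks of duplicates, and the columns may be technical repeats or separate cultures. In bulk RNA of this kind, fewer cells that express a gene and less RNA per cell cannot be told apart.

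In this yeast, fatty acids are broken down by beta-oxidation in the peroxisome, a small organelle bounded by a single membrane. Acyl chains are imported through the transporter built from Pxa1 and Pxa2, or enter as free fatty acids that Faa2 activates, and are then shortened in turn by Pox1, Fox2 and Pot1. The transcription factors Oaf1 and Pip2 act as a pair that switches these genes on in oleate through upstream oleate response elements, Adr1 assists them, and glucose represses the pathway. Pex11 promotes division of peroxisomes. Cit2 is the peroxisomal citrate synthase, which takes up acetyl units, and its gene is the classic target of the retrograde factors Rtg1 and Rtg3, which bind R boxes.

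The sequences below show the element that ties these genes to Oaf1 and Pip2. The search used CGGNNNTNA, then 9 to 12 further bases, then CCG, on both strands of the 500 bases before the annotated start codon, in the R64 assembly of RefSeq. Of 6000 nuclear protein-coding genes, 113 (1.88%) held a match, against 7 of the 10 members. The 7 members held 9 matches between 113 and 312 bases before the start codon. Each is printed 5′ to 3′ on the strand that carries the match, with 6 bases on either side and the fixed letters of the element in capitals. Palindromic matches are printed once. The coordinates are those of R64, since the deposited table has none and names no build.
POX1, first element (chrVII:107840-107874, minus strand): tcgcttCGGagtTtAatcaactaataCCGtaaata
POX1, second element (chrVII:107877-107911, plus strand): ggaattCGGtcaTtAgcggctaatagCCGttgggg
FOX2, first element (chrXI:457331-457364, plus strand): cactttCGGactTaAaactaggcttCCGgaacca
FOX2, second element (chrXI:457299-457331, plus strand): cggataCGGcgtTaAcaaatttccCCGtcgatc
POT1 (chrIX:41604-41638, minus strand): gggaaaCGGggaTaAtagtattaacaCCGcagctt
PXA2 (chrXI:89029-89064, minus strand): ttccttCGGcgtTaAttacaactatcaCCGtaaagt
FAA2 (chrV:184349-184383, minus strand): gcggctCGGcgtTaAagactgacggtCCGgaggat
PEX11 (chrXV:48750-48784, minus strand): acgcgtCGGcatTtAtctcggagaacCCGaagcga
PIP2 (chrXV:1023342-1023374, minus strand): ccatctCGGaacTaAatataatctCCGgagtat

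PXA1, OAF1 and CIT2 held no match in this window, which says only that these letters are not there. The shorter element CGGNNNTNA, which is part of every full match, stood before 9 members and before 37.8% of all genes. OAF1 was the member without it. TTGGAG or TTGGGG, the core of Adr1 sites, stood before 8 members and before 26.2% of all genes, the exceptions being PXA2 and OAF1. GTCAC, the core of the R box, stood before 4 members, POT1, PEX11, PIP2 and CIT2, and before 42.4% of all genes. The full R box GGTCAC stood before 1 member, CIT2, and before 9.52% of all genes. CIT2 held it on both strands, and the stretch is printed on the strand of the gene with the boxes in capitals.
CIT2 (chrIII:122629-122680, minus strand): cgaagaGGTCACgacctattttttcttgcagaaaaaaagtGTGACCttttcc

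The 3 enzymes of the beta-oxidation spiral parted. FOX2 (YKR009C, chromosome XI, 2703 nt of coding sequence), which encodes the multifunctional enzyme that hydrates and then dehydrogenates the acyl chain, was at 67.0 and 108 FPKM in UV02_HG, against 43.5 and 17.3 FPKM in MF02. Both UV02_HG columns were above both MF02 columns. Its log2 ratio of UV02_HG over MF02, computed on mean FPKM with 1 added, was 1.496, a 2.82-fold higher value, and ran from 0.61 to 2.57 over the 4 comparisons of single columns. FOX2 was the only member at least 2-fold higher, beside 14.7% of the 6291 features that reached 1 FPKM in UV02_HG or MF02 (called expressed). Its ratio was 0.99, just under 2-fold, without MF02 column 2, 2.27 without MF02 column 1, and 0.49 with the columns rescaled to equal FPKM totals.

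POX1 (YGL205W, chromosome VII, 2247 nt), the acyl-CoA oxidase gene of the first step, was at 6.33 and 4.74 FPKM in UV02_HG, against 10.7 and 14.4 FPKM in MF02. The columns did not overlap, and the log2 ratio was -1.05, or 2.08-fold lower (column range -1.42 to -0.68). POX1 lay close to the 2-fold line, at -0.89 without UV02_HG column 2 and at -0.85 without MF02 column 2. POT1 (YIL160C, chromosome IX, 1254 nt), the thiolase gene of the last step, was at 35.3 and 27.6 FPKM in UV02_HG and at 71.4 and 16.6 FPKM in MF02. Both UV02_HG values lay between those of MF02, and the log2 ratio of -0.47 changed sign with the column chosen, from -1.16 without MF02 column 2 to 0.89 without MF02 column 1.

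**Figure D1:**
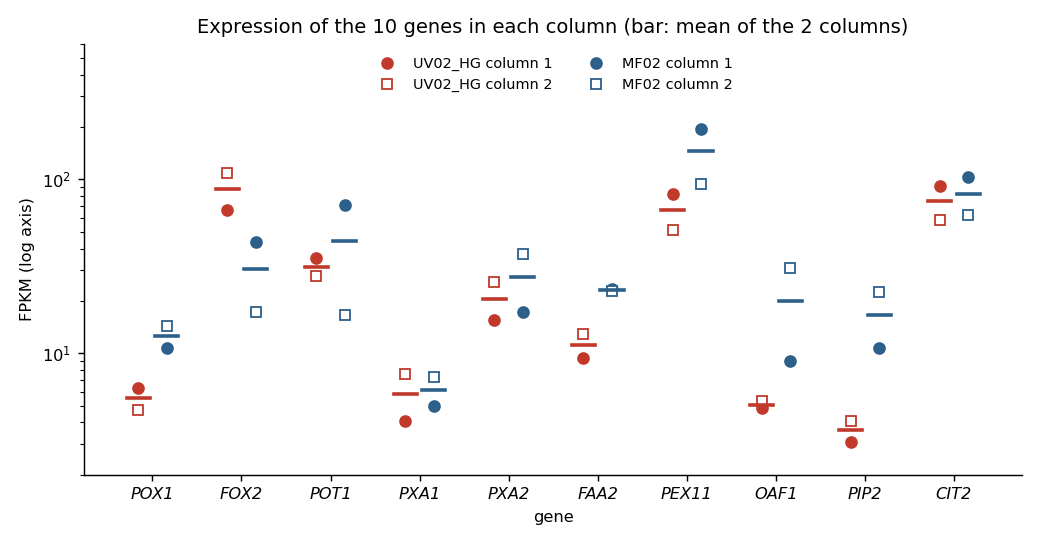
FPKM of the 10 genes on a log axis, with UV02_HG in red to the left of MF02 in blue for each gene, column 1 as filled circles, column 2 as open squares and the mean of both columns as a bar. FOX2 is the gene whose UV02_HG columns (67.0 and 108 FPKM) both stand above its MF02 columns, while the MF02 columns of POT1 and OAF1 lie farthest apart.

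A ratio of 2 genes within a column does not depend on how the columns were scaled, so it shows the shift of FOX2 against its neighbours in the pathway. These pairs were chosen after the values were seen. FOX2 stood at 10.6 and 22.8 times the FPKM of POX1 in the UV02_HG columns, and at 4.04 and 1.203 times in the MF02 columns. The coding sequences of these genes are of similar length. FOX2 relative to POT1 was 1.90 and 3.91 in UV02_HG, against 0.61 and 1.04 in MF02, and again the strains did not overlap, although POT1 is far shorter (1254 nt against 2703 nt for FOX2). POT1 relative to POX1 was 5.58 and 5.83 in UV02_HG and 6.64 and 1.15 in MF02, with the UV02_HG values between those of MF02.

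Of the 3 genes that bring fatty acids into the pathway, 0 were past 2-fold. PXA1 (YPL147W, chromosome XVI) and PXA2 (YKL188C, chromosome XI) encode the subunits of the peroxisomal ABC transporter for long-chain acyl-CoA. PXA1 was at 4.10 and 7.63 FPKM in UV02_HG, against 4.99 and 7.30 FPKM in MF02, with a log2 ratio of -0.06 (-0.70 to 0.53). PXA2 was at 15.6 and 25.7 FPKM in UV02_HG, against 17.3 and 37.3 FPKM in MF02, with a log2 ratio of -0.39 (-1.21 to 0.54). The columns overlapped for both subunits, and both ratios were above 0 without MF02 column 2 (0.20 for PXA1 and 0.24 for PXA2).

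PXA2 stood above PXA1 in all 4 columns, at 3.80 and 3.36 times its FPKM in UV02_HG and at 3.46 and 5.11 times in MF02. These genes have coding sequences of nearly the same length, 2613 nt for PXA1 and 2562 nt for PXA2. FAA2 (YER015W, chromosome V, 2235 nt), the medium-chain acyl-CoA synthetase gene, was at 9.44 and 12.9 FPKM in UV02_HG, against 23.4 and 22.8 FPKM in MF02. Its columns did not overlap, and its log2 ratio of -0.99 (-1.22 to -0.78) was the one just short of the 2-fold line, and was -1.21 without UV02_HG column 2. In R64, FAA2 overlaps 1 other annotated gene, and whether reads were counted by strand is not stated, so some of its reads may belong to that gene or be missing. FAA2 relative to PXA1 was 2.30 and 1.69 in UV02_HG and 4.68 and 3.13 in MF02, without overlap.

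**Figure D2:**
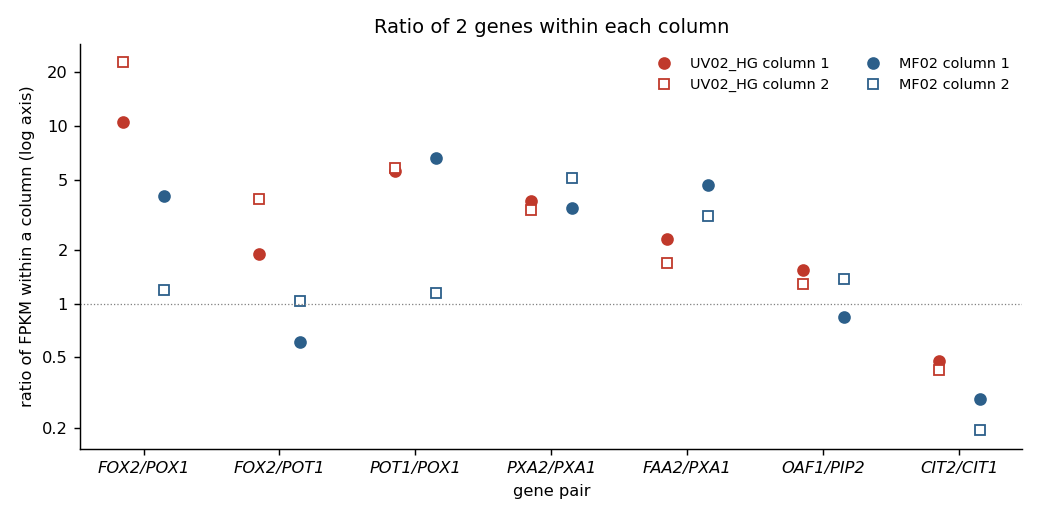
Ratio of the FPKM of 2 genes within each column, on a log axis, with UV02_HG in red to the left of MF02 in blue, column 1 as filled circles and column 2 as open squares; the dotted line marks equal FPKM. FOX2/POX1 is 10.6 and 22.8 in UV02_HG, above 4.04 and 1.203 in MF02, whereas PXA2/PXA1 overlaps between the strains.

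PEX11 (YOL147C, chromosome XV, 711 nt), the peroxisome division gene, was the most abundant member in MF02. It was at 81.9 and 51.0 FPKM in UV02_HG, against 195 and 93.8 FPKM in MF02. The columns did not overlap, but the gap between 81.9 and 93.8 FPKM was small beside the 2.08-fold difference of the MF02 columns. The log2 ratio was -1.11 (-1.92 to -0.19), or 2.16-fold lower, and was -0.49 without MF02 column 1 and -0.81 without UV02_HG column 2.

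The genes of both oleate factors were lower in UV02_HG, although relative to coding length OAF1 (-0.19) and PIP2 (-0.30) lay near genes of their length. OAF1 (YAL051W, chromosome I, 3144 nt), which encodes the subunit that senses oleate, was at 4.83 and 5.29 FPKM in UV02_HG, against 9.07 and 30.9 FPKM in MF02. PIP2 (YOR363C, chromosome XV, 2991 nt), which encodes its partner and carries an oleate response element of its own, was at 3.10 and 4.10 FPKM in UV02_HG, against 10.7 and 22.4 FPKM in MF02. Neither gene overlapped between the strains, and the log2 ratios were -1.79 for OAF1 (-2.45 to -0.68) and -1.93 for PIP2 (-2.51 to -1.20). The ratio of OAF1 rested largely on MF02 column 2, without which it was -0.73, and was -2.40 without MF02 column 1. PIP2 stayed past 2-fold when any column was left out, from -2.34 to -1.35. OAF1 relative to PIP2 was 1.56 and 1.29 in UV02_HG and 0.85 and 1.38 in MF02, with overlap.

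CIT2 (YCR005C, chromosome III, 1383 nt) was at 91.3 and 58.5 FPKM in UV02_HG, against 104 and 62.1 FPKM in MF02, with a log2 ratio of -0.14 (-0.81 to 0.55). The columns overlapped, and the ratio was 0.27 without MF02 column 1 and 0.14 without UV02_HG column 2. Its mitochondrial counterpart CIT1, the citrate synthase gene of the tricarboxylic acid cycle, was at 190 and 137 FPKM in UV02_HG, against 353 and 319 FPKM in MF02, with a log2 ratio of -1.03 (-0.82 without UV02_HG column 2 and -0.96 without MF02 column 1). CIT2 relative to CIT1 was 0.48 and 0.43 in UV02_HG and 0.29 and 0.19 in MF02, without overlap, and their coding sequences differ little in length (1383 and 1440 nt). CIT3, a further mitochondrial citrate synthase gene, was at 12.5 and 12.1 FPKM in UV02_HG and at 13.9 and 5.02 FPKM in MF02, with a log2 ratio of 0.35 (1.14 without MF02 column 1 and -0.16 without MF02 column 2).

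By mean FPKM, a level per length, the order in UV02_HG from high to low was FOX2, CIT2, PEX11, POT1, PXA2, FAA2, PXA1, POX1, OAF1 and PIP2, from 87.5 to 3.60 FPKM. In MF02 it was PEX11, CIT2, POT1, FOX2, PXA2, FAA2, OAF1, PIP2, POX1 and PXA1, from 145 to 6.15 FPKM. FOX2 was thus first in UV02_HG and the fourth in MF02. Neighbours such as PXA1, POX1 and OAF1 in UV02_HG (5.87, 5.54 and 5.06 FPKM), or PXA2 and FAA2 in MF02 (27.3 and 23.1 FPKM), lay within the spread of their columns. Measured against all coding genes, POX1 and PXA1 had low levels in both strains, at percentiles 22.8 and 24.1 in UV02_HG and 18.2 and 7.63 in MF02. FOX2 was at percentile 79.0 in UV02_HG and 43.9 in MF02.

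A difference of 2-fold or more was seen upward in UV02_HG in 1 of the 10 members and downward in 4, beside 14.7% and 47.2% of all expressed features. The median log2 ratio of the members was -0.73, against -0.89 for all expressed features. Without MF02 column 2 these medians were -0.79 and -0.52. In 1 member both UV02_HG columns lay above both MF02 columns, and in 5 they lay below, beside 20.7% and 56.4% of all expressed features. These counts are near the background. With equal FPKM totals 0 members were past 2-fold upward and 9 downward, beside 5.29% and 70.3% of all expressed features. Upper quartile scaling gave 1 and 2 members, beside 23.8% and 27.4%, and centring on the median gene gave 1 and 1, beside 28.6% and 20.6%. The UV02_HG columns were less than 2-fold apart in all 10 members, and at least 2-fold apart in 8.09% of expressed features. The MF02 columns were at least 2-fold apart in 6 members, with the largest difference in POT1 (4.30-fold), and in 38.1% of expressed features. These shares of all features were counted on FPKM with 1 added and the members on FPKM alone, so the counts are not strictly alike. In MF02, PEX11 (2.08-fold) and PIP2 (2.09-fold) lay close to the line. The difference between the MF02 columns also varied with coding length, as given below, and most members are long genes.

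Reads were recovered from FPKM and coding length for the counting error. The library totals were 12507299 and 13040931 reads in UV02_HG and 12796339 and 15144991 reads in MF02. The least covered member was PIP2, with 276 reads summed over the UV02_HG columns, against 1423 over the MF02 columns. The ratio of summed reads, corrected for the totals, was 3.00 for FOX2 (exact 95% interval 2.86 to 3.15), 0.434 for POX1 (0.380 to 0.495) and 0.212 for PIP2 (0.186 to 0.242). It was 0.945 for PXA1 (0.824 to 1.08), the member whose interval included 1. These intervals cover counting error alone, and the spread between columns was wider.

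Across the whole table the strain ratio varied with coding length, and most members are long genes. The median log2 ratio was 0.39 in genes up to 750 nt and -1.55 in genes of 2251 to 3000 nt. In the same classes the median log2 ratio of column 2 over column 1 was 0.05 and 0.12 in UV02_HG, against -0.26 and 1.23 in MF02. The part of this trend in the values above was not tested. Each member was therefore also set against the median of itself and the 200 other expressed genes closest to it in coding length, and this difference is called the length-relative ratio.

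**Figure D3:**
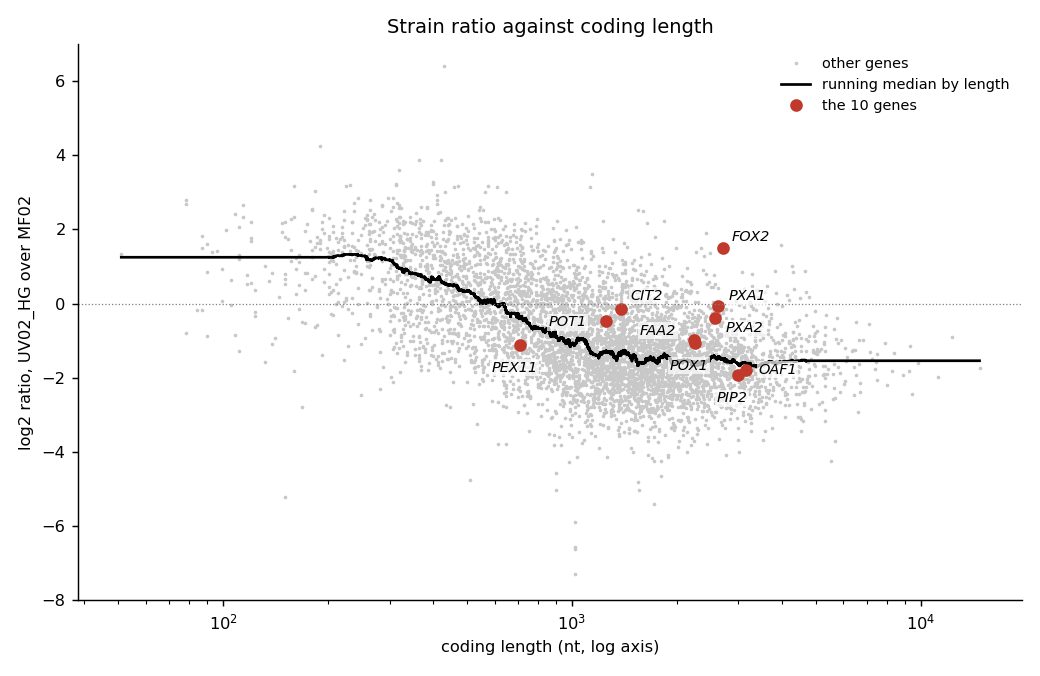
Log2 ratio of UV02_HG over MF02 against coding length (log axis) for expressed coding genes (grey), with the running median by length (black) and the 10 genes (red). FOX2, at 1.496, stands far above genes of its length, PXA1 and CIT2 stand above theirs, and OAF1 and PIP2 lie near the black line.

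Seen this way, 7 members lay above genes of their length and 3 below, where 49.8% of all coding genes lay above. FOX2 stood at 3.00, and 0 of the 200 other genes nearest in length had a higher ratio. PXA1 (1.43), CIT2 (1.19) and PXA2 (1.04) were also at least 2-fold above genes of their length, so 4 members were that far above and 0 that far below, beside 17.0% and 16.8% of all coding genes. POT1 (0.83), FAA2 (0.61) and POX1 (0.58) were above by less, so POX1 was lower in raw ratio and not in length-relative ratio. PEX11 (-0.70), PIP2 (-0.30) and OAF1 (-0.19) were below. The median of the members was 0.72, against 0.00 for all coding genes.

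**Figure D4:**
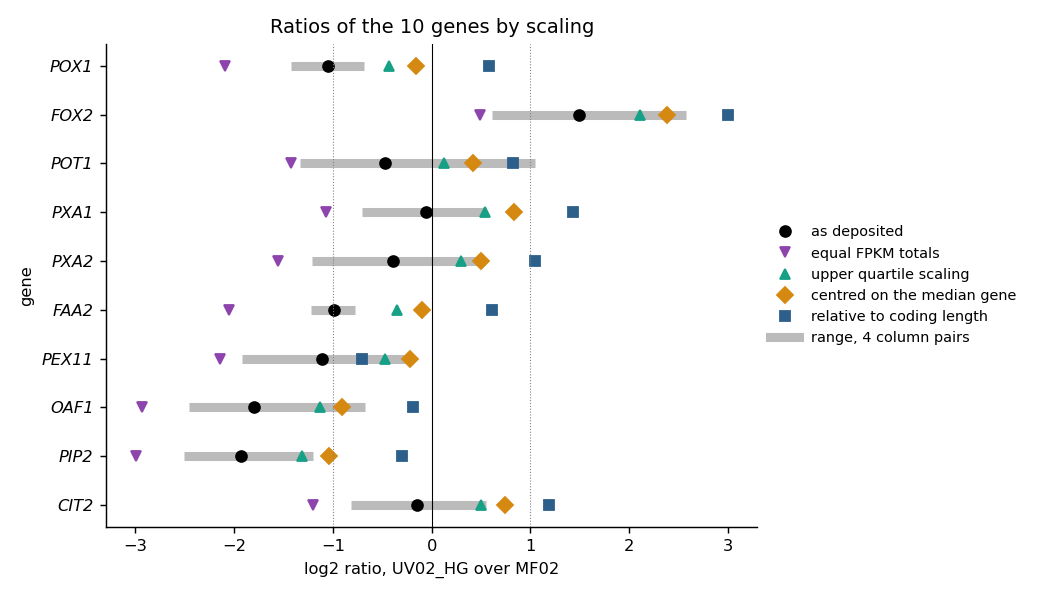
Log2 ratios of UV02_HG over MF02 for the 10 genes as deposited (black), under 3 other scalings and relative to coding length (blue squares); grey bars span the 4 comparisons of single columns and dotted lines mark 2-fold. FOX2 is above 0 and PEX11, OAF1 and PIP2 are below 0 under each of them, while POT1, PXA1, PXA2 and CIT2 change sign between scalings and POX1 and FAA2 do so relative to coding length.

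Other genes of the pathway, in lists chosen with earlier results of these data known, differed by member too. Among the 8 auxiliary genes of beta-oxidation, 0 were higher by 2-fold or more and 3 were lower by that much, with a median log2 ratio of -0.43. This share is read beside the 14.7% higher and 47.2% lower of all expressed features. The same background holds for the counts as deposited in each list that follows. DCI1, a gene similar to the enoyl-CoA isomerase gene, was at 0.78 and 1.03 FPKM in UV02_HG, against 6.80 and 7.85 FPKM in MF02 (log2 ratio -2.12), and rested on 8 and 11 reads in UV02_HG. ANT1, the peroxisomal adenine nucleotide carrier gene, was at 24.1 and 11.5 FPKM in UV02_HG, against 52.6 and 73.7 FPKM in MF02 (-1.77, or -2.36 without UV02_HG column 1). TES1, an acyl-CoA thioesterase gene, was at 8.15 and 19.2 FPKM in UV02_HG, against 60.3 and 28.4 FPKM in MF02 (-1.63, or -1.003 without MF02 column 1 and -2.31 without UV02_HG column 2). These 3 genes were also below genes of their length, at -1.45, -0.64 and -0.65.

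In 2 of the 8 auxiliary genes both UV02_HG columns lay above both MF02 columns, and in 3 they lay below. The shares of all expressed features were 20.7% and 56.4%. IDP3, which encodes the peroxisomal isocitrate dehydrogenase that supplies NADPH for unsaturated fatty acids, was at 20.6 and 20.9 FPKM in UV02_HG, against 11.3 and 13.4 FPKM in MF02. Its log2 ratio was 0.70 and its length-relative ratio 2.03. ECI1, the enoyl-CoA isomerase gene, was at 48.8 and 46.2 FPKM in UV02_HG, against 40.4 and 40.2 FPKM in MF02 (log2 ratio 0.23, length-relative 0.96). Rescaled to equal FPKM totals, both ratios were below 0 (-0.38 for IDP3 and -0.87 for ECI1). The columns overlapped for the dienoyl-CoA reductase gene SPS19 (-0.36), the peroxisomal catalase gene CTA1 (-0.21) and the peroxisomal malate dehydrogenase gene MDH3 (-0.50), and these ratios were above 0 after centring on the median gene. MDH3 was at -1.47 without UV02_HG column 1 and at 0.08 without UV02_HG column 2, CTA1 at 0.59 without MF02 column 1 and at 0.20 without UV02_HG column 2, and SPS19 at 0.02 without MF02 column 1.

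The oleate response element stood before 7 of the 8 auxiliary genes. Among the 101 expressed genes that held it and are not members, 12.9% were higher by 2-fold or more and 44.6% lower by that much, beside 14.7% and 47.2% of all expressed features. Their median log2 ratio was -0.73 and their median length-relative ratio 0.04.

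The 5 further genes of fatty acid activation or uptake, FAA1, FAA3, FAA4, FAT1 and PCS60, were all at least 2-fold lower in UV02_HG, beside 47.2% of all expressed features, with a median of -1.62. Without MF02 column 2, 3 of them were, beside 32.7% of all expressed features. FAA4, a long-chain acyl-CoA synthetase gene, was at 10.01 and 15.3 FPKM in UV02_HG, against 99.7 and 215 FPKM in MF02, with a log2 ratio of -3.54 (-2.88 without MF02 column 2) and a length-relative ratio of -1.996. PCS60, which encodes a peroxisomal protein of the same superfamily, was at 19.5 and 19.6 FPKM in UV02_HG, against 116 and 143 FPKM in MF02 (-2.66, length-relative -1.13). The median length-relative ratio of these 5 genes was -0.08, with FAA1 at -0.08, FAA3 at 0.08 and FAT1 at 0.34. Of the 4 carnitine shuttle genes, 1 was at least 2-fold lower, the carnitine acetyltransferase gene CAT2 (-1.195), which was above genes of its length at 0.36.

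Peroxin genes differed by member. Of the 19 genes for import of matrix or membrane proteins, receptors included, 2 were past 2-fold upward and 10 downward. These counts were near the 14.7% and 47.2% of all expressed features, and the list median was -1.14, or 0.00 relative to length. Of the 14 genes for number, size and inheritance of peroxisomes, 3 were past it upward and 3 downward, and the median was -0.02, or 1.19 relative to length. With equal FPKM totals these numbers were 1 and 15 for the import genes and 0 and 7 for the genes of number and size. All expressed features were then at 5.29% upward and 70.3% downward. After centring on the median gene the gene numbers were 4 and 6 and then 6 and 2, beside 28.6% and 20.6% of all expressed features. PEX9, an import receptor gene known from cells on oleate, was at 19.3 and 20.8 FPKM in UV02_HG, against 3.19 and 2.09 FPKM in MF02. Its log2 ratio of 2.53 (2.27 to 2.82) was the largest positive one among the 83 genes of all the lists, its length-relative ratio was 4.19, and it stayed above 2-fold under each of the scalings tried.

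In the second of these lists VPS1, a dynamin-like GTPase gene of peroxisome fission and vacuolar sorting, was at 21.1 and 17.1 FPKM in UV02_HG, against 57.7 and 149 FPKM in MF02 (-2.38, or -1.55 without MF02 column 2, and length-relative -0.83). PEX30, a gene of peroxisome formation at the endoplasmic reticulum, was at 9.71 and 13.8 FPKM in UV02_HG, against 43.8 and 71.7 FPKM in MF02 (-2.21, length-relative -0.60). The 3 genes at least 2-fold higher, named after their values were seen, were PEX34 (log2 ratio 1.69), PEX35 (1.41) and PEX27 (1.37), with length-relative ratios of 1.17, 2.74 and 2.72. With equal FPKM totals they were at 0.61, 0.29 and 0.26. PEX34 was at 213 and 356 FPKM in UV02_HG, against 103 and 72.3 FPKM in MF02. PEX35 was at 43.1 and 51.1 FPKM in UV02_HG, against 13.8 and 20.3 FPKM in MF02. PEX27, which encodes a relative of Pex11, was at 23.1 and 65.6 FPKM in UV02_HG, against 14.6 and 18.6 FPKM in MF02. Its ratio ran from 0.30 to 2.10 over single columns. Both UV02_HG columns were above both MF02 columns in all 3 genes, beside 20.7% of all expressed features. Without UV02_HG column 2, 2 genes of this list were at least 2-fold higher, beside 14.0% of all expressed features.

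**Figure D5:**
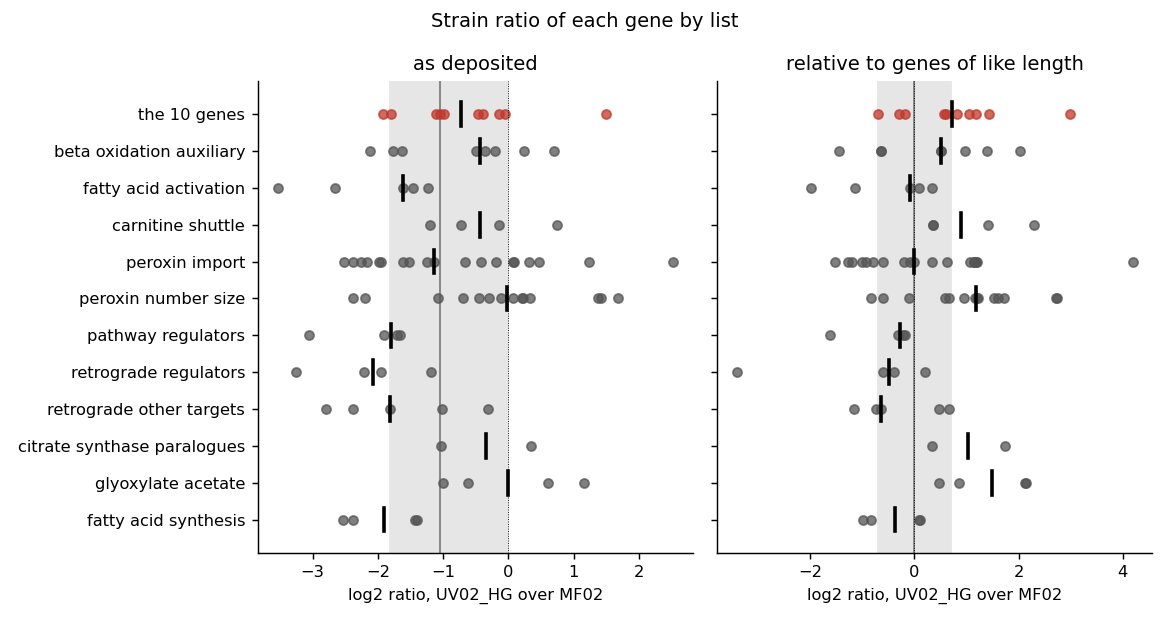
Log2 ratio of UV02_HG over MF02 for each gene by list, as deposited (left panel) and relative to genes of like length (right panel); black ticks are list medians, the grey line and band are the median and the interquartile range of all expressed coding genes. The lists of activation, regulators and fatty acid synthesis lie to the left as deposited, and most of the 10 genes (red) lie to the right of the grey line relative to length.

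The 4 other regulators were each at least 2-fold lower, beside 47.2% of all expressed features, with a median of -1.81, or -0.27 relative to length. MIG1, which encodes a repressor that acts in glucose, was at 10.7 and 15.4 FPKM in UV02_HG, against 86.6 and 144 FPKM in MF02 (-3.05, length-relative -1.61). ADR1, the activator gene of peroxisomal and non-fermentative genes, was at 4.77 and 6.22 FPKM in UV02_HG, against 21.0 and 25.9 FPKM in MF02 (-1.91, length-relative -0.32). OAF3, which encodes a repressor of oleate-responsive genes, was at 2.75 and 3.76 FPKM in UV02_HG, against 7.36 and 18.3 FPKM in MF02 (-1.70). SNF1, the kinase gene for relief of glucose repression, was at 16.9 and 24.96 FPKM in UV02_HG, against 38.0 and 99.1 FPKM in MF02 (-1.67). Without MF02 column 2, OAF3 was at -0.98 and SNF1 at -0.83, both short of 2-fold. Both UV02_HG columns were below both MF02 columns in all 4, beside 56.4% of all expressed features, and OAF3 (-0.22) and SNF1 (-0.17) lay near genes of their length.

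The retrograde genes around CIT2 were lower than CIT2 itself in the ratio of mean FPKM. All 4 retrograde regulators were at least 2-fold lower, beside 47.2% of all expressed features (median -2.08, length-relative -0.50), and so were 4 of 5 other targets (median -1.82, length-relative -0.65). Without MF02 column 2, 2 of the regulators were that far lower, beside 32.7% of all expressed features. Relative to length, the regulator RTG3 (0.20) and the targets DLD3 (0.46) and IDH1 (0.66) were above 0. RTG1, which encodes one of the factors that bind R boxes, was at 3.14 and 3.88 FPKM in UV02_HG, against 22.1 and 62.1 FPKM in MF02. Its log2 ratio was -3.26 (-2.36 without MF02 column 2) and its length-relative ratio -3.41. Among the targets, the pyruvate carboxylase gene PYC1 was at 25.001 and 40.1 FPKM in UV02_HG, against 191 and 271 FPKM in MF02 (-2.79), and the aconitase gene ACO1 at 25.9 and 44.8 FPKM in UV02_HG, against 185 and 191 FPKM in MF02 (-2.38). All 5 had lower ratios than CIT2, although IDH1, at -0.31, lay within the column range of CIT2 (-0.81 to 0.55). The column ranges of RTG3 (-1.71 to -0.39) and DLD3 (-1.55 to -0.38) also overlapped that of CIT2.

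Acetyl units from beta-oxidation pass to the glyoxylate cycle, and fatty acid synthesis runs the opposite way. Of 4 glyoxylate and acetate genes, 1 was past 2-fold upward and 1 downward, with a median of -0.01, or 1.49 relative to length. SFC1, the mitochondrial succinate and fumarate carrier gene, was at 12.7 and 11.3 FPKM in UV02_HG, against 7.10 and 2.52 FPKM in MF02 (log2 ratio 1.16, or 0.68 without MF02 column 2 and 1.89 without MF02 column 1). All 4 genes of fatty acid synthesis and desaturation were at least 2-fold lower, beside 47.2% of all expressed features (median -1.91, length-relative -0.38). Without MF02 column 2, 3 of these genes were, beside 32.7% of all expressed features. However, FAS1 (0.11) and OLE1 (0.09) were above 0 relative to length. FAS2, the gene of the synthase's alpha subunit, was at 57.5 and 54.7 FPKM in UV02_HG, against 248 and 414 FPKM in MF02, with a log2 ratio of -2.54 and a length-relative ratio of -0.997. As a difference between lists, none of this was tested, since the labels give 1 sample per strain.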

How the data were processed

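The authors deposited FPKM values for 7163 features, 2 columns per strain, with 4 further rows without values. Tools named in the submitters' processing notes are TopHat2 2.0.12, HTSeq 0.6.1 and Bowtie2 2.2.3, while the build, annotation and strand setting are not given there. Locus tags matched to R64 (RefSeq) gave a coding length for 6004 features, and FPKM times coding length gave whole reads, within 0.02, for 99.86% to 99.88% of coding genes above 0 in each column.

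Ratios are log2 of mean FPKM of UV02_HG plus 1 over that of MF02 plus 1, which understates differences of weakly expressed genes. The 6291 features that reached 1 FPKM in UV02_HG or MF02 were used, 5689 of them with a coding length. A gene was counted when its log2 ratio was at least 1 in size. The members and lists were chosen with earlier results of these data known. Named are all members, all auxiliary genes, regulators and citrate synthases, and the 2 genes of largest ratio per other list (1 for lists under 5 genes), except 1 gene that is not reported here. The steps were tested on simulated reads with known changes. Both simulated columns of a strain followed the same length trend, unlike the MF02 columns here, so that difference was not covered. Software was matplotlib 3.10.9, scipy 1.17.1, pandas 2.3.3 and numpy 2.4.6 under Python 3.11.15.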

Additional observations from a re-analysis of the deposited data

How the results depend on the processing

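The counts of 1 member at least 2-fold higher and 4 lower, and the median of -0.73, depended on scaling. Equal FPKM totals gave 0 higher, 9 lower and a median of -1.80, beside 70.3% of all features lower and -1.97 for their median. Upper quartile scaling gave 2 lower (27.4% of all) and a median of -0.11 (-0.26 for all), and centring on the median gene 1 lower (20.6% of all) and 0.16. Relative to coding length, 4 were higher and 0 lower, beside 17.0% and 16.8% of coding genes, the median was 0.72, and 6 of the members changed sign. Among the genes named past 2-fold as deposited, POX1 (0.58), CAT2 (0.36) and CIT1 (0.33) changed sign relative to length. So did FAA3 (0.08), FAT1 (0.34), RTG3 (0.20), DLD3 (0.46), FAS1 (0.11) and OLE1 (0.09). The cause was not tested. At 4-fold, 0 were higher and 0 lower, beside 4.88% and 17.8% of all features. A pseudocount of 5 gave a median of -0.58, and a minimum of 10 FPKM, which 9 members passed, gave -0.99. Leaving out 1 column at a time gave 0 to 1 higher, 3 to 4 lower and medians of -0.79 to -0.66. The shares of all features were then 14.0% to 17.8% higher and 32.7% to 51.7% lower, and their medians -1.08 to -0.52. Without MF02 column 2 the median of the members (-0.79) was below that of all features (-0.52), unlike in the main setting. FOX2, PEX11, OAF1 and PIP2 kept their sign in all 11 settings in which single genes were recomputed. A ratio of summed reads without a pseudocount, chosen after seeing the data, gave 1 higher, 5 lower and -0.74. In that setting the shares of coding genes were 11.5% higher and 54.4% lower. Of the gene lists around the members, centring on the median gene left 2 of 5 activation genes, 2 of 4 regulators, 3 of 4 retrograde regulators and 2 of 4 fatty acid synthesis genes at least 2-fold lower, beside 20.6% of all features. No paired analysis was possible because the labels give 1 sample per strain.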
